A study of Mus musculus with 8 samples.

Results

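The maturation of wildtype mouse testis between 19 and 25 days post partum (dpp) was described by comparing the 2 wildtype libraries of 25 dpp with the 2 wildtype libraries of 19 dpp. These 4 of the 8 libraries were taken by the genotype and age in their labels, and no measured value entered the choice. The study sequenced mRNA of whole testes from C57BL/6 males that were Dnmt3A WT/WT or Dnmt3A KO/KO, with 2 libraries at 19 dpp and 2 at 25 dpp for each genotype. The groups compared here are therefore Dnmt3A WT/WT males at 19 dpp and Dnmt3A WT/WT males at 25 dpp, which share strain, sex and tissue and differ in age. The 4 libraries of Dnmt3A KO/KO males, which lack a DNA methyltransferase of the germ line, entered the shared estimate of the spread and, in the closing section, a test of whether the age difference varied with genotype. The labels do not say whether the 2 libraries of a group came from separate animals, so the p-values measure a spread shared over all 8 samples, which may be technical.

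In the young mouse testis the first germ cells start meiosis together and move through it as a cohort, the first wave of spermatogenesis. Spermatogonia become primary spermatocytes, these pass through the pachytene stage, divide into secondary spermatocytes and then into haploid round spermatids, which elongate, pack their DNA with transition proteins and protamines and build an acrosome and a tail. Round spermatids are known to appear at about the younger of these ages and to be plentiful at the older one, while Sertoli, Leydig, peritubular and blood vessel cells make up the frame around the germ cells. Levels here are CPM, a gene's count relative to the scaled size of its library, and 2 values for an age are replicate 1 and then replicate 2 (n = 2). A difference is the log2 of 25 over 19 dpp, and a gene rose or fell where the quasi-likelihood test of edgeR gave a Benjamini-Hochberg adjusted p under 0.05. In bulk RNA fewer cells of a type and less RNA per cell cannot be told apart, and every level is a share of the library rather than an amount per testis.

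The promoters of genes that rose strongly held few CG pairs, as did those of several somatic gene lists. A CG pair is a C followed by a G on the same strand, the site at which DNA is methylated. Some promoters are shown before the values. Each line holds 120 bases of RefSeq promoter sequence (GRCm38.p6, the mm10 assembly), 5′ to 3′ on the gene's strand and clear of the gene's GENCODE exons, with each CG pair in capitals. The lines end at the RefSeq start or up to 63 bases before it. Prm1, Tnp2 and Spz1 are spermatid genes that rose more than 16-fold, and the other lines are 2 X-linked general genes, each followed by its autosomal copy used in germ cells.
Prm1 chr16:10796887-10797006: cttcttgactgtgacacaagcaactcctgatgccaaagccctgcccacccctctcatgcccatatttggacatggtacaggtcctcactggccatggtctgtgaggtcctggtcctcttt
Tnp2 chr16:10788661-10788780: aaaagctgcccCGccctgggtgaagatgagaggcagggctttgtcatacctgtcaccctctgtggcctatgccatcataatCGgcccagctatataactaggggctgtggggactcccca
Spz1 chr13:92576233-92576352: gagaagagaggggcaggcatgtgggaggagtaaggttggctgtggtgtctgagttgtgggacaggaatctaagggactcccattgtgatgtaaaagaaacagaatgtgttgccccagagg
Pgk1 chrX:106186980-106187099: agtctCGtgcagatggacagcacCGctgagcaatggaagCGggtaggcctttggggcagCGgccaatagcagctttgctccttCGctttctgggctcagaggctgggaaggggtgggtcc
Pgk2 chr17:40208641-40208760: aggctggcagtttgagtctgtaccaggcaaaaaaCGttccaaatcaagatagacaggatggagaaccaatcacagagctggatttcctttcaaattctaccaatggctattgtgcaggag
Rpl10 chrX:74270692-74270811: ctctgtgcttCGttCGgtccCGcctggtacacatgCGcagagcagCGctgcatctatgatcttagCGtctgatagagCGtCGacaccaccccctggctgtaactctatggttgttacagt
Rpl10l chr12:66284402-66284521: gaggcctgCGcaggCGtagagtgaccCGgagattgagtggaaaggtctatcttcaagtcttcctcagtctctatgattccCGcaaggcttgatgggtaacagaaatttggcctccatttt
Prm1 makes a protamine and its window (minus strand) held no CG pair. A longer GENCODE transcript of Prm1 starts further upstream. The Tnp2 window, before a transition protein gene (minus strand), held 2 CG pairs, and that of Spz1, which makes a spermatid transcription factor (minus strand), held none. Pgk1, the general phosphoglycerate kinase (plus strand), had 5 and its germ cell copy Pgk2 (minus strand) had 1, and Rpl10, of the large ribosomal subunit (plus strand), had 8 where Rpl10l (minus strand) had 4.

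Gene counts were 27142989 and 31793256 at 19 dpp and 50445334 and 40972444 at 25 dpp, so that a floor of 3 counts was 0.111 and 0.0944 CPM at 19 dpp and 0.0595 and 0.0732 CPM at 25 dpp before scaling, which covers counting error only. The scaling factors were 1.15 and 1.10 at 19 dpp and 0.727 and 0.835 at 25 dpp. Mitochondrially encoded genes held 2.66% and 2.85% of gene counts at 19 dpp and 1.25% and 1.63% at 25 dpp. The 2 libraries of an age were not alike. At 25 dpp replicate 1 was higher than replicate 2 for spermatid genes, by a median log2 of 1.999 over the elongating spermatid list against 0.05 over the 21351 genes with at least 10 counts in both. At 19 dpp replicate 2 was higher than replicate 1 for genes of the sperm tail, the Leydig cell and the macrophage, with medians of 1.76, 1.15 and 1.07 against 0.02 over 18709 genes. The part of these gaps in the results was not tested beyond leaving out each library in turn.

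Most of the measured genes differed between the ages. Of 23353 genes tested 14079 (60.3%) passed, with 8151 (34.9%) higher and 5928 (25.4%) lower at 25 dpp, and the libraries of the ages did not overlap for 19542 genes (83.7%). The shares of 34.9% and 25.4% are the background for every count of rises and falls below. The sizes were uneven. At least 16-fold differences numbered 2879 upward and 16 downward, and the median log2 difference was 2.702 among genes that rose and −1.06 among those that fell, while the median over all genes was 0.01. No count at 19 dpp was seen for 1197 of the genes that rose, and a gene without counts there could not fall. Genes that rose at least 16-fold held 0.174% and 0.547% of all gene counts at 19 dpp and 11.6% and 6.89% at 25 dpp. The split of the calls moved with the scaling of the libraries. With libraries scaled to total counts 6295 genes rose and 9718 fell (39.3% of calls higher against 57.9%), and the median of all genes moved by −0.52. With libraries scaled to the sum of Sertoli cell genes 11846 rose and 391 fell (96.8% higher), with a shift of 0.91. Without replicate 1 of 19 dpp 3777 genes fell, and without replicate 1 of 25 dpp 3794 fell.

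**Figure D1:**
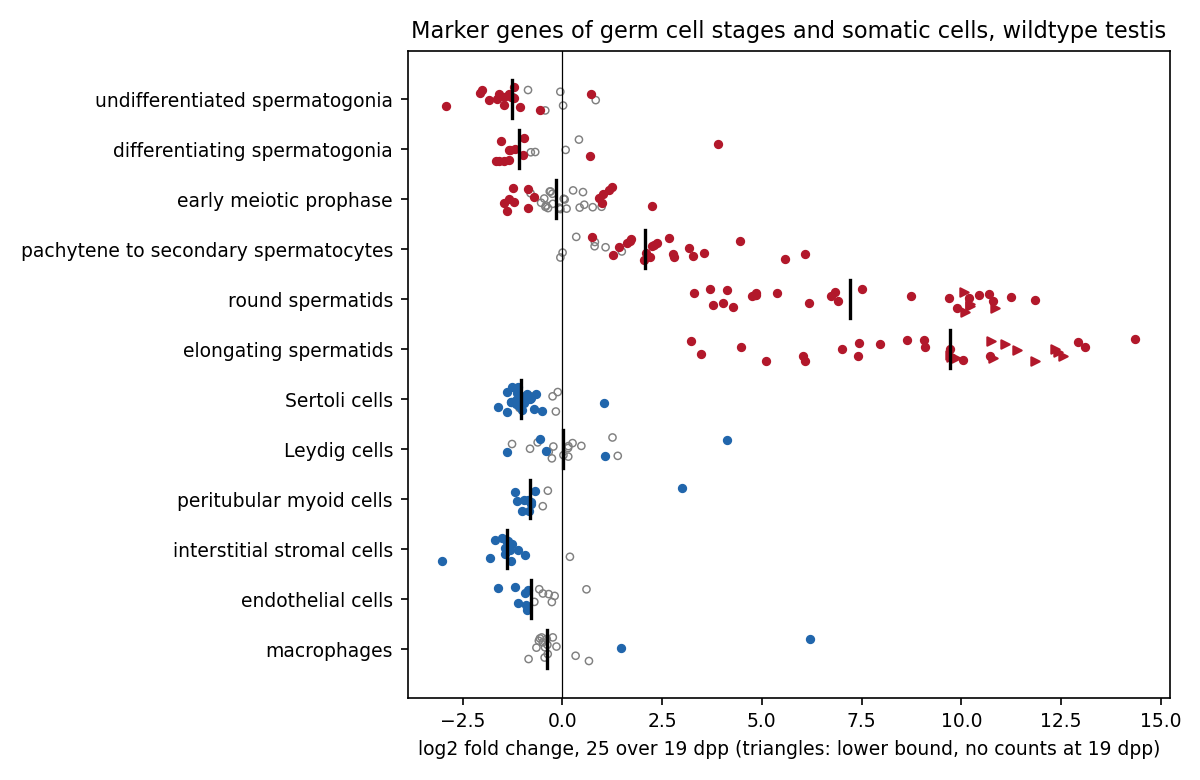
Log2 difference of 25 over 19 dpp for each tested marker gene (points) of 6 germ cell stages in red and 6 somatic cell types in blue, with filled points for genes past the edgeR test, open grey points for others, triangles for lower bounds where no count was seen at 19 dpp, and black bars for list medians. The germ cell medians run from −1.26 for undifferentiated spermatogonia to 9.73, at the bound, for elongating spermatids, and those of 5 of the 6 somatic lists lie below 0.

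The proteins that pack the sperm genome came from genes at or near 0 at 19 dpp. Elongating spermatids swap histones first for transition proteins and then for protamines. Prm1 (chr16:10796326-10805839, minus strand) and Prm2 (chr16:10791380-10796134, minus strand), the protamine genes, had no count in either library at 19 dpp. At 25 dpp Prm1 stood at 317 and 10.2 CPM and Prm2 at 508 and 17.5 CPM, at least 3716-fold and at least 5970.5-fold above a floor of 3 counts over both libraries of 19 dpp (edgeR adjusted p = 0.0306 and 0.0272). The transition protein gene Tnp2 (chr16:10787936-10788660, minus strand) went from no count to 468 and 19.98 CPM, at least 5538-fold. Its partner Tnp1 (chr1:73015074-73015909, minus strand) stood at 0.161 and 0.0862 CPM at 19 dpp and 401 and 20.4 CPM at 25 dpp (log2 difference 10.72, SE 1.83, adjusted p = 0.00329). Both libraries of 25 dpp lay far above those of 19 dpp for these 4 genes, and replicate 1 was 31.1-fold above replicate 2 for Prm1.

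Other spermatid chromatin genes followed, with smaller gaps for those already expressed in spermatocytes. H1fnt, a linker histone of spermatids, went from no count to 169 and 23.8 CPM, at least 2171-fold, and Prm3, of the same gene cluster as the protamines, to 62.3 and 13.3 CPM, at least 849.9-fold. Hils1, a linker histone-like gene of spermatids, had 1 count over both libraries of 19 dpp and stood at 266 and 68.6 CPM at 25 dpp, a ratio of 11281 with a 95% counting interval of 2025 to 445570. The nucleosome remodeller gene Chd5 stood at 21.5 and 16.6 CPM at 19 dpp and 399 and 132 CPM at 25 dpp, and it rose (log2 difference 3.80, SE 0.541, adjusted p = 0.00187). Psme4, the proteasome activator that degrades acetylated histones, rose from 163 and 203 CPM at 19 dpp to 1127 and 762 CPM at 25 dpp (log2 difference 2.37, SE 0.211, adjusted p = 0.000414). Brdt, a bromodomain gene that starts in spermatocytes, rose by 1.43 and Kdm3a, a histone demethylase that activates Tnp1 and Prm1, by 0.77. The variant histone gene H3f3b stood at 817 and 958 CPM at 19 dpp and 896 and 1024 CPM at 25 dpp and did not pass (adjusted p = 0.677), with libraries of the ages overlapping. Of the 21 genes of the spermatid chromatin list 17 rose (background 34.9% of all genes) and none fell, with a median of 2.37 against 0.01 over all genes. With no filter 9 rose, when a change above 2-fold was tested 8, and on total counts 12. The median was 2.29 without replicate 1 and 2.53 without replicate 2 of 19 dpp.

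**Figure D2:**
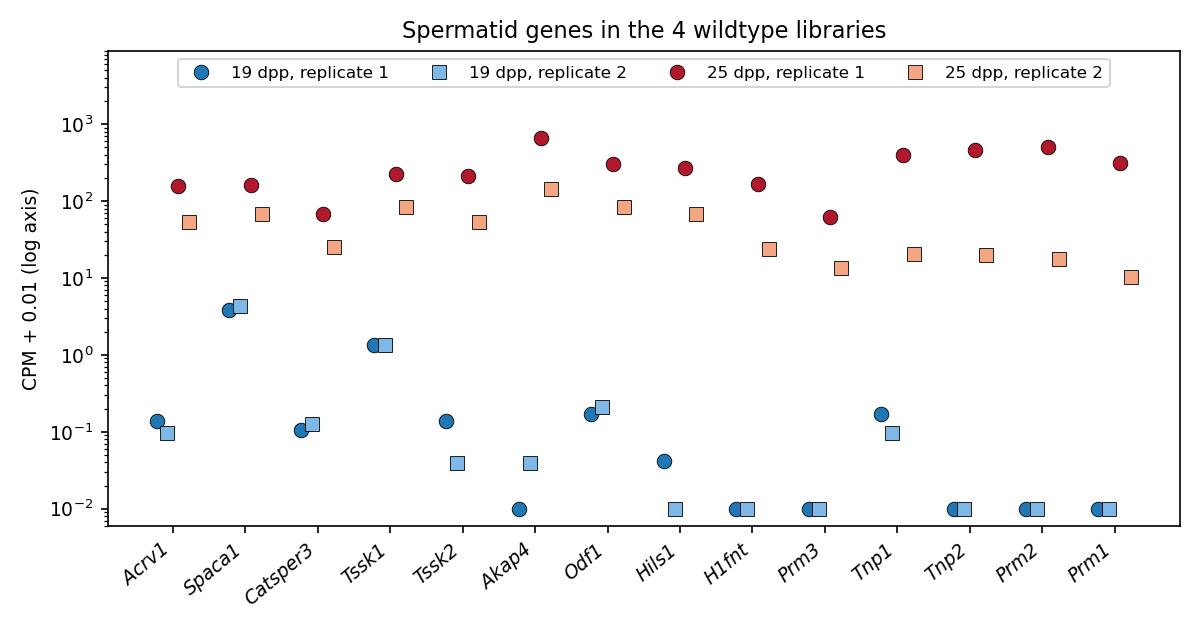
Level of 14 spermatid genes in each wildtype library, as CPM + 0.01 on a log axis, where points on the lowest line are genes with no count. Every red and orange point (25 dpp) lies above the blue points (19 dpp) of its gene, and replicate 1 of 25 dpp lies above replicate 2 for each gene.

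Genes of the acrosome, the enzyme cap with which the sperm meets the egg, rose as a group. Spam1 and Acr make a hyaluronidase and a protease of the acrosome, and Acrv1 an acrosomal vesicle protein. Acrv1 stood at 0.128 and 0.0862 CPM at 19 dpp and 156 and 53.1 CPM at 25 dpp, and Spam1 at 0 and 0 CPM at 19 dpp and 72.5 and 34.1 CPM at 25 dpp. Acr, switched on earlier, stood at 5.81 and 19.6 CPM at 19 dpp and 251 and 165 CPM at 25 dpp. Izumo1, the sperm protein that binds the egg, stood at 1.19 and 1.12 CPM at 19 dpp and 71.6 and 25.5 CPM at 25 dpp (log2 difference 5.39, SE 0.525, adjusted p = 0.000498), and it overlaps Rasip1 on the same strand, so reads of the pair may be shared. Spaca1, needed for the shape of the acrosome, stood at 3.85 and 4.31 CPM at 19 dpp and 163 and 67.2 CPM at 25 dpp (log2 difference 4.82, SE 0.464, adjusted p = 0.000530), and Dpy19l2, which anchors the acrosome to the nucleus, rose by 4.12 from 8.99 and 29.7 CPM at 19 dpp to 387 and 289 CPM at 25 dpp. Adam2 and Adam3, surface proteins with a part in sperm migration and binding, rose by 2.79 and 5.58. The libraries of the ages did not overlap for any of these genes. In all 23 of the 24 tested genes of acrosome and fusion rose, with a median of 4.93, and 23 of 24 were higher in both libraries of 25 dpp (background 43.4%). Spaca6 alone did not pass (log2 difference 0.69, adjusted p = 0.0951).

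The sperm tail has a motile core, the axoneme, wrapped in outer dense fibres and a fibrous sheath that holds glycolytic enzymes. Odf1 (chr15:38219203-38226735, plus strand), of the dense fibres, stood at 0.161 and 0.201 CPM at 19 dpp and 304 and 84.9 CPM at 25 dpp (log2 difference 10.03, SE 0.874, adjusted p = 0.000498). Akap4, the main protein of the fibrous sheath, had 1 count over both libraries of 19 dpp and 652 and 145 CPM at 25 dpp, a ratio of 26896 with a 95% counting interval of 4827 to 1062300. Akap3, its partner, stood at 3.53 and 3.99 CPM at 19 dpp and 736 and 228 CPM at 25 dpp (log2 difference 6.999, SE 0.640, adjusted p = 0.000539). Odf1 and Akap4 were thus near 0 in both libraries of 19 dpp, and Akap3 was low. Odf2, also a centrosome gene, was well expressed before and rose from 158 and 266 CPM at 19 dpp to 2973 and 1733 CPM at 25 dpp (log2 difference 3.47, SE 0.336, adjusted p = 0.000538). All 17 tested genes of the fibrous sheath and dense fibres rose, with a median of 7.45.

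Axoneme genes were under way at 19 dpp and differed between its libraries. Dnah8, a dynein heavy chain of the sperm tail, stood at 126 and 503 CPM at 19 dpp and 2133 and 1905 CPM at 25 dpp (log2 difference 2.68, SE 0.688, adjusted p = 0.0144). Rsph1, of the radial spokes, stood at 160.3 and 419.6 CPM at 19 dpp and 1703 and 1466 CPM at 25 dpp (log2 difference 2.45, SE 0.481, adjusted p = 0.00533). In both, replicate 2 of 19 dpp was over 2-fold above replicate 1 and still under both libraries of 25 dpp. Tekt4, of the tektin filaments, started lower, at 0.835 and 2.47 CPM at 19 dpp and 274 and 155 CPM at 25 dpp (log2 difference 7.004, SE 0.598, adjusted p = 0.000480). Dnaic2, a dynein intermediate chain, rose by 5.85 with the smallest adjusted p of the list (0.000287), from 2.66 and 2.36 CPM at 19 dpp to 163 and 127 CPM at 25 dpp. All 25 axoneme genes rose, between 2.39 and 7.004 on the log2 scale with a median of 3.62. Of these 17 rose without replicate 1 of 25 dpp, 20 without replicate 2 of 25 dpp, and in the 4 wildtype libraries with a replicate block 19. All 25 rose without either replicate of 19 dpp, with a median of 2.91 without replicate 1 and 4.78 without replicate 2.

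The calcium channel of the sperm tail, CatSper, has pore and auxiliary subunits, and 3 of the 4 pore subunits were near 0 at 19 dpp. Catsper1, a pore subunit, went from no count at 19 dpp to 118 and 45.3 CPM at 25 dpp, at least 1829-fold. Catsper3, of the same pore, stood at 0.0963 and 0.115 CPM at 19 dpp and 68.5 and 25.0 CPM at 25 dpp. Catsper4 stood at 0.0642 and 0.0575 CPM at 19 dpp and 108 and 42.9 CPM at 25 dpp. Catsper2, the last pore subunit, was higher at the start, with 20.5 and 35.3 CPM at 19 dpp and 445 and 314 CPM at 25 dpp (log2 difference 3.76, SE 0.350, adjusted p = 0.000498). Among the auxiliary subunits Catsperg1 stood at 58.0 and 140.0 CPM at 19 dpp and 391 and 346 CPM at 25 dpp (log2 difference 1.90, SE 0.378, adjusted p = 0.00554) and Catsperg2 rose by 2.17, Catsperd by 3.05 and Catsperb by 3.58. Catsperz, which overlaps Kcnk4 on its strand, rose by 4.28, and Efcab9, its partner, by 5.81. All 10 tested genes of the channel rose, with a median of 4.02. The testis-specific serine kinases, which act in spermatids, showed the same direction in 6 of 6 members with a median of 6.18. Tssk1 stood at 1.35 and 1.35 CPM at 19 dpp and 225 and 84.4 CPM at 25 dpp (log2 difference 6.84, SE 0.555, adjusted p = 0.000417), and Tssk6 at 0.385 and 0.373 CPM at 19 dpp and 46.3 and 3.98 CPM at 25 dpp (log2 difference 6.04, SE 1.20, adjusted p = 0.00560), with replicate 1 of 25 dpp far above replicate 2.

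Over the 2 stage lists that gather these genes, all 30 round spermatid genes and all 30 elongating spermatid genes rose. For round spermatids the median level was 0.722 and 0.804 CPM at 19 dpp and 206 and 69.3 CPM at 25 dpp, and the median difference was 7.21. For elongating spermatids it was 0.0642 and 0.0575 CPM at 19 dpp and 224 and 33.6 CPM at 25 dpp, with a median difference of 9.73 when the 11 genes without counts at 19 dpp were set to their bound. Those 11 genes could pass the filter only by counts in other groups, so they could not fall. Replicate 1 of 25 dpp exceeded replicate 2 in 30 of 30 genes of either list, with median log2 gaps of 1.34 and 1.999. Without replicate 1 of 25 dpp 30 round and 30 elongating spermatid genes rose, with fitted medians of 5.94 and 8.49 (7.21 and 10.37 with all libraries), and without replicate 2 of 19 dpp the fitted medians were 8.15 and 11.16. All 30 round spermatid genes also rose without either replicate of 19 dpp, by limma-voom and with no filter, while of the elongating spermatid genes 27 rose without either replicate of 19 dpp, 25 by limma-voom and 23 with no filter. Among the lists above, the median without replicate 2 of 19 dpp was 6.01 for acrosome and fusion and 5.30 for the CatSper channel. Without replicate 1 of 19 dpp these medians were 4.49 and 3.54. On total counts 21 acrosome and fusion genes rose, and with a replicate block over the 4 wildtype libraries 19 of them and 9 CatSper genes rose. Without replicate 1 of 25 dpp the median was 5.87 for the fibrous sheath and dense fibres and 5.40 for the testis-specific serine kinases. In the 13 lists in which no gene fell by edgeR, none was lower at an unadjusted p under 0.05, by DESeq2 or by limma-voom, and the same held upward for the stromal and endothelial lists. For genes at or near 0 at 19 dpp, as in the spermatid lists, a fall could hardly be seen by any method.

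**Figure D3:**
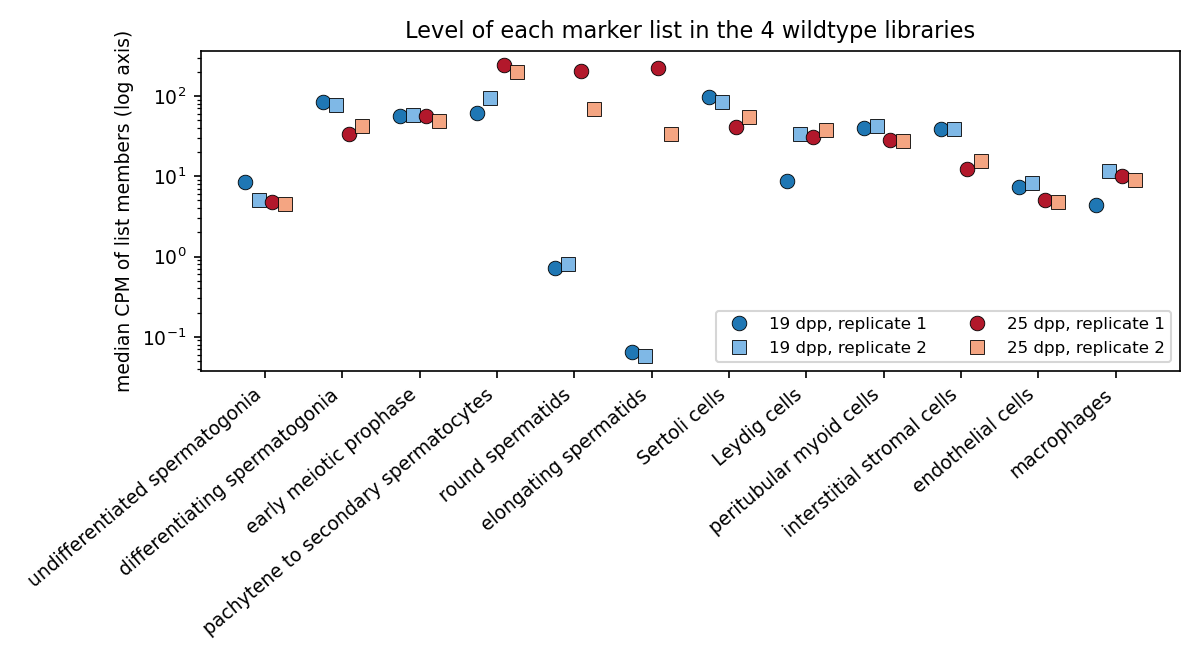
Median CPM of the tested members of each marker list in each wildtype library, on a log axis, with 19 dpp in blue, 25 dpp in red and orange, circles for replicate 1 and squares for replicate 2. The spermatid lists sit between 0.0575 and 0.804 CPM at 19 dpp and between 33.6 and 224 CPM at 25 dpp, and the Leydig and macrophage lists are lowest in replicate 1 of 19 dpp.

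The 10 largest rises were taken among genes with at least 8 CPM at 25 dpp and at least 10 counts over both libraries of 19 dpp. Spata20 (chr11:94478904-94486179, minus strand) stood at 0.0321 and 0.488 CPM at 19 dpp and 724 and 244 CPM at 25 dpp (log2 difference 10.79, SE 0.960, adjusted p = 0.000515). Spz1 (chr13:92574636-92576172, minus strand), a transcription factor named for spermatogenesis, stood at 0.0321 and 0.316 CPM at 19 dpp and 403 and 111 CPM at 25 dpp (log2 difference 10.45, SE 1.04, adjusted p = 0.000673). Gsg1, a germ cell membrane protein, rose by 10.39 and Oaz3, the antizyme of spermatids that limits polyamines, by 9.71. Kif2b, a kinesin, stood at 0.674 and 0.402 CPM at 19 dpp and 535 and 146 CPM at 25 dpp. Irgc1, a member of the immunity-related GTPases, stood at 0.642 and 0.201 CPM at 19 dpp and 461 and 128 CPM at 25 dpp. Chl1, better known as an adhesion molecule of neurons, stood at 0.0963 and 0.316 CPM at 19 dpp and 317 and 109 CPM at 25 dpp (log2 difference 9.96, SE 0.759, adjusted p = 0.000416). Stat4, a signalling transcription factor best known in lymphocytes, stood at 0.0642 and 0.287 CPM at 19 dpp and 173 and 62.5 CPM at 25 dpp (log2 difference 9.32, SE 0.814, adjusted p = 0.000499). Kif2b had the highest level of the 10 at 19 dpp and Stat4 the lowest at 25 dpp, so the ages were far apart for all 10, and replicate 1 of 25 dpp was above replicate 2 in each. The clone-named RP23-410L16.5, which was not placed on the genome, and Odf1 completed the 10.

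Of the genes that rose, Ldhc, the lactate dehydrogenase of germ cells, had the highest mean level at 25 dpp. It stood at 139 and 537 CPM at 19 dpp and 4630.4 and 3263 CPM at 25 dpp (log2 difference 3.55, SE 0.732, adjusted p = 0.00641). Pabpc1, which binds poly(A) tails, stood at 814 and 1319.9 CPM at 19 dpp and 4258 and 3419 CPM at 25 dpp (log2 difference 1.85, SE 0.254, adjusted p = 0.00133). Ubb, a polyubiquitin gene, rose by 1.34, Hsp90aa1, the inducible form of the chaperone HSP90, by 1.11, and Tcp1, of the chaperonin that folds actin and tubulin, by 2.07. Slc2a3, a glucose transporter, stood at 182 and 616 CPM at 19 dpp and 2870.5 and 2516 CPM at 25 dpp (log2 difference 2.75, SE 0.574, adjusted p = 0.00664). Atp8b3, a lipid flippase of the acrosome, stood at 34.6 and 185 CPM at 19 dpp and 3246 and 2086 CPM at 25 dpp. Fhl4, a LIM protein of testis, stood at 37.6 and 142 CPM at 19 dpp and 2926 and 1821 CPM at 25 dpp. For Ldhc, Slc2a3, Atp8b3 and Fhl4 replicate 2 of 19 dpp was over 3-fold above replicate 1 and both libraries of 25 dpp were far above it.

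Regulators of germ cell transcription mostly rose, on different starting levels. Rfx2, which drives cilium and tail genes in spermatids, stood at 45.1 and 88.4 CPM at 19 dpp and 543 and 399 CPM at 25 dpp (log2 difference 2.82, SE 0.379, adjusted p = 0.00156). Crem, whose testis isoform activates spermatid genes, rose by 2.62 from 24.0 and 42.6 CPM at 19 dpp to 241 and 169.9 CPM at 25 dpp. Fhl5, the coactivator of that isoform, stood at 0.161 and 0.488 CPM at 19 dpp and 102 and 20.04 CPM at 25 dpp. Foxj1, the regulator of motile cilia, stood at 3.56 and 4.28 CPM at 19 dpp and 127 and 73.7 CPM at 25 dpp (log2 difference 4.67, SE 0.311, adjusted p = 0.000413). Sox30 and Tcfl5, regulators of late spermatocytes and spermatids, rose by 2.27 and 2.23. Tbpl1, a relative of the TATA-binding protein, rose from 70.9 and 88.1 CPM at 19 dpp to 459 and 363 CPM at 25 dpp (log2 difference 2.37, SE 0.202, adjusted p = 0.000413). Mybl1, which drives pachytene transcription, rose by 0.75. Of 24 such genes 20 rose (background 34.9%), 1 fell (background 25.4%) and 3 did not pass (Rfx3, Dmrtc2 and Hsf2), with a median of 2.25. The 1 that fell was Taf7l, an X-linked general transcription factor gene of germ cells, at 235 and 166 CPM at 19 dpp and 79.9 and 90.3 CPM at 25 dpp (log2 difference −1.24, SE 0.278, adjusted p = 0.00758). On Sertoli scaling 23 of the 24 rose and none fell. When a change above 2-fold was tested 16 rose and none fell.

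Spermatocyte genes depended on their stage. Of 28 genes of pachytene to secondary spermatocytes 21 rose (background 34.9%) and none fell (background 25.4%), with a median of 2.07. Ccna1, the cyclin of the meiotic divisions, stood at 1.22 and 4.14 CPM at 19 dpp and 206 and 157 CPM at 25 dpp (log2 difference 6.07, SE 0.609, adjusted p = 0.000684), and Aurkc, the meiotic Aurora kinase, at 2.83 and 5.06 CPM at 19 dpp and 42.1 and 34.2 CPM at 25 dpp (log2 difference 3.27, SE 0.411, adjusted p = 0.000908). Hspa2, a chaperone of pachytene cells, was high before, with 284 and 589.7 CPM at 19 dpp and 1934 and 1666 CPM at 25 dpp (log2 difference 2.04, SE 0.449, adjusted p = 0.00804). Piwil1, the PIWI protein of pachytene cells, stood at 194 and 560.4 CPM at 19 dpp and 1036 and 1084 CPM at 25 dpp and did not pass (adjusted p = 0.0754), with both 19 dpp libraries under both libraries of 25 dpp. Of 20 genes of the meiotic divisions 15 rose (background 34.9%) and 1 fell (background 25.4%), with a median of 1.05. On total counts 9 rose and 3 fell (median 0.53), and without replicate 1 of 19 dpp or of 25 dpp 10 rose and none fell. Plk1, a kinase that starts division, stood at 23.2 and 26.7 CPM at 19 dpp and 141 and 114 CPM at 25 dpp (log2 difference 2.35, SE 0.267, adjusted p = 0.000658). Aurka, a mitotic kinase, rose by 2.53, and Cdc20, which activates the anaphase ligase, by 0.89. Ccnb3, a cyclin of early prophase, fell by 1.38, and Cdk2, which spermatocytes need, stood at 161 and 157 CPM at 19 dpp and 157 and 165 CPM at 25 dpp without passing (adjusted p = 0.902).

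Early meiotic prophase genes changed in either direction, and most did not pass. The list holds the genes that break and repair DNA and that hold homologous chromosomes together. Of 36 tested 6 rose (background 34.9%), 8 fell (background 25.4%) and 22 did not pass, with a median of −0.16 against 0.01 over all genes. Syce1, of the central element of the synaptonemal complex, stood at 81.5 and 111 CPM at 19 dpp and 522 and 398 CPM at 25 dpp (log2 difference 2.25, SE 0.340, adjusted p = 0.00206). Stag3 and Rec8, subunits of meiotic cohesin, rose by 1.03 and 1.24, and Spo11, the enzyme that cuts DNA for recombination, by 0.93. By contrast Prdm9, which sets the sites of those cuts, stood at 58.2 and 54.8 CPM at 19 dpp and 20.7 and 23.8 CPM at 25 dpp (log2 difference −1.34, SE 0.223, adjusted p = 0.00224). Dmc1, the meiotic recombinase, fell by 1.23, Rad21l, another cohesin, by 1.47, and Tex11, an X-linked gene of crossover formation, by 1.38. Sycp3, of the chromosome axis, stood at 380.2 and 327 CPM at 19 dpp and 274 and 326 CPM at 25 dpp, and Sycp1, of the transverse filament, at 288 and 416 CPM at 19 dpp and 381 and 467 CPM at 25 dpp, and neither passed (adjusted p = 0.544 and 0.493). The count turned with the scaling, with 1 rise and 16 falls on total counts and 12 calls, all of them rises, on Sertoli scaling, and without replicate 1 of 19 dpp or of 25 dpp it was 1 rise and 4 falls.

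Spermatogonial genes were lower at 25 dpp relative to the library. Of 22 genes of undifferentiated spermatogonia 14 fell (background 25.4%) and 1 rose, with a median of −1.26, and on Sertoli scaling 5 fell and 1 rose with a median of −0.39. Zbtb16, a transcription factor that maintains these cells, stood at 54.4 and 41.8 CPM at 19 dpp and 14.0 and 16.8 CPM at 25 dpp (log2 difference −1.64, SE 0.292, adjusted p = 0.00285). Ret, a receptor subunit for the niche factor GDNF, stood at 19.0 and 11.1 CPM at 19 dpp and 3.54 and 3.98 CPM at 25 dpp (log2 difference −2.002, SE 0.305, adjusted p = 0.00171). Sall4, a transcription factor of these cells, fell by 1.83. Gfra1, the other subunit of that receptor, stood at 9.86 and 4.97 CPM at 19 dpp and 5.89 and 5.12 CPM at 25 dpp and did not pass (adjusted p = 0.280), with overlapping libraries. Id4, a marker of stem cells, was the exception and stood at 40.8 and 52.6 CPM at 19 dpp and 73.5 and 80.5 CPM at 25 dpp (log2 difference 0.72, SE 0.210, adjusted p = 0.0192). No gene of the list, Id4 included, rose on total counts or when a change above 2-fold was tested. The same held in the 4 wildtype libraries with a replicate block. Of 16 genes of differentiating spermatogonia 10 fell (background 25.4%) and 2 rose (background 34.9%), with a median of −1.08. On Sertoli scaling 1 of them fell and 3 rose, with a median of −0.18. Kit, the receptor that marks them, stood at 98.5 and 94.4 CPM at 19 dpp and 38 and 46.5 CPM at 25 dpp (log2 difference −1.19, SE 0.187, adjusted p = 0.00185). Stra8, the retinoic acid target that starts meiosis, stood at 124 and 88.0 CPM at 19 dpp and 29.4 and 37.7 CPM at 25 dpp (log2 difference −1.66, SE 0.273, adjusted p = 0.00234). Dmrtb1, which times the entry into meiosis, rose from 38.7 and 65.4 CPM at 19 dpp to 926 and 636 CPM at 25 dpp (log2 difference 3.91, SE 0.559, adjusted p = 0.00190). Without replicate 1 of 25 dpp 6 of the 16 fell and 1 rose.

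Proliferation genes changed in either direction. Of 29 such genes 8 rose (background 34.9%) and 11 fell (background 25.4%), with a median of −0.04. The falls were of E2f1, Cdt1, Ccna2, Tk1, Tyms, Mki67 and 5 of the 6 tested subunits of the MCM helicase that opens DNA for replication (Mcm2 to Mcm6), while Mcm7 rose by 1.03. E2f1, a transcription factor of the S phase, stood at 32.7 and 25.5 CPM at 19 dpp and 11.1 and 13.4 CPM at 25 dpp (log2 difference −1.24, SE 0.231, adjusted p = 0.00328). Foxm1, a transcription factor of G2 and M phases, rose from 68.9 and 64.8 CPM at 19 dpp to 263 and 202 CPM at 25 dpp (log2 difference 1.80, SE 0.231, adjusted p = 0.000977), and it overlaps Tex52 on its strand. Cenpe and Ttk, of the kinetochore and its checkpoint, rose by 1.27 and 1.29. On Sertoli scaling all 13 calls were rises, and on total counts 4 rose and 12 fell.

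Small RNA and translation regulators of germ cells changed in both directions. Of 24 piRNA pathway genes 10 rose (background 34.9%) and 4 fell (background 25.4%), with a median of 0.61. On total counts 6 rose and 5 fell (median 0.10), and on Sertoli scaling 17 rose and none fell (median 1.497). Tdrd6 and Tdrd7, Tudor proteins of the chromatoid body, rose by 3.94 and 2.26. Tdrd6 stood at 37.4 and 136 CPM at 19 dpp and 1532 and 1134 CPM at 25 dpp, with the ages apart. Mael, needed for transposon silencing, rose from 206 and 308 CPM at 19 dpp to 1484 and 1102 CPM at 25 dpp (log2 difference 2.33, SE 0.325, adjusted p = 0.00159), and Ddx4, the germ cell RNA helicase, by 1.18. Piwil4, the nuclear PIWI protein of fetal germ cells, fell by 1.47. Without replicate 1 of 19 dpp 6 rose and 2 fell, and without replicate 1 of 25 dpp 6 rose and 3 fell. Among 18 RNA regulators 10 rose (background 34.9%) and 2 fell (background 25.4%), with a median of 0.89. On total counts 9 rose and 6 fell (median 0.37), and on Sertoli scaling 14 rose and none fell (median 1.79). Ybx3, a cold shock protein that stores mRNA, stood at 93.0 and 279.9 CPM at 19 dpp and 1968 and 1434 CPM at 25 dpp (log2 difference 3.19, SE 0.511, adjusted p = 0.00267). Ddx25, the helicase that carries stored mRNA in spermatids, rose by 2.73, Tarbp2, which lets protamine mRNA be translated, by 1.72, and Cpeb1, which controls poly(A) tails in early meiosis, fell by 1.32.

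Dnmt3a (chr12:3806007-3914443, plus strand), the gene targeted in the study and intact in these animals, stood at 147 and 141 CPM at 19 dpp and 48.7 and 70.0 CPM at 25 dpp (log2 difference −1.28, SE 0.181, adjusted p = 0.00135). Of 18 genes that write, read or remove DNA methylation 9 fell (background 25.4%) and 4 rose (background 34.9%), with a median of −0.38. On total counts 14 fell and 2 rose with a median of −0.91, and on Sertoli scaling 2 fell and 8 rose with a median of 0.53. Tet2 and Tet3, which oxidise methylcytosine, fell by 1.83 and 1.66, and Dnmt3b, the other new-methylation enzyme, by 1.47. Dnmt1, which copies methylation, stood at 195 and 207 CPM at 19 dpp and 158 and 176 CPM at 25 dpp and did not pass (adjusted p = 0.193). Dnmt3l, the cofactor of Dnmt3a, rose by 3.15 and Mbd3, of the NuRD complex, by 1.14. Without replicate 1 of 19 dpp or of 25 dpp 8 fell and 2 rose.

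Genes of Sertoli cells, which nurse the germ cells, were lower as a share of the library. Of 30 such genes 24 fell (background 25.4%) and 1 rose (background 34.9%), with a median of −1.03. On Sertoli scaling, which sets their summed level equal, the 1 call among them was a rise and the median was −0.13. Clu, a secreted chaperone, stood at 3051 and 2216 CPM at 19 dpp and 1132 and 1501 CPM at 25 dpp (log2 difference −1.001, SE 0.215, adjusted p = 0.00579). Sox9, the sex-determining factor, stood at 88.3 and 67.0 CPM at 19 dpp and 27.2 and 36.5 CPM at 25 dpp (log2 difference −1.28, SE 0.2, adjusted p = 0.00181). Amh, the hormone of immature Sertoli cells, stood at 42.2 and 34.9 CPM at 19 dpp and 14.6 and 19.98 CPM at 25 dpp. Shbg, an androgen-binding protein, had 84.2 and 90.3 CPM at 19 dpp and 29.5 and 36.8 CPM at 25 dpp (log2 difference −1.40, SE 0.147, adjusted p = 0.000536). Both libraries of 25 dpp lay under both of 19 dpp for 26 of the 30 genes (background 40.3%). Inha, a subunit of inhibin, stood at 160.2 and 356 CPM at 19 dpp and 202 and 233 CPM at 25 dpp without passing (adjusted p = 0.556). Cldn3, of the blood-testis barrier, was the 1 that rose, at 1.41 and 3.05 CPM at 19 dpp and 4.28 and 4.97 CPM at 25 dpp (log2 difference 1.05, SE 0.388, adjusted p = 0.0470). Cldn3 did not pass on total counts (0.54), with no filter, in the 4 wildtype libraries alone, or without replicate 1 of 19 dpp (0.60), either replicate of 25 dpp or any KO/KO library.

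Leydig cells make testosterone between the tubules, and their genes split the 19 dpp libraries. Hsd3b6, the steroid dehydrogenase of adult Leydig cells, stood at 2.66 and 150.2 CPM at 19 dpp and 70.3 and 99.5 CPM at 25 dpp. Cyp17a1, which makes androgens, stood at 2.22 and 65.5 CPM at 19 dpp and 51.5 and 111 CPM at 25 dpp. Cyp11a1, which starts steroid synthesis, stood at 3.15 and 73.6 CPM at 19 dpp and 97.9 and 103 CPM at 25 dpp. Replicate 1 of 19 dpp was thus 23.4-fold to 56.4-fold under replicate 2 for these enzymes, and the 3 genes did not pass (adjusted p = 0.937, 0.429 and 0.328). Star, which brings cholesterol into mitochondria, stood at 17.6 and 30.6 CPM at 19 dpp and 10.2 and 56.9 CPM at 25 dpp, where the libraries of 25 dpp lay on either side of those of 19 dpp. Insl3, the peptide hormone of mature Leydig cells, rose from 0.417 and 2.33 CPM at 19 dpp to 22.7 and 26.1 CPM at 25 dpp (log2 difference 4.14, SE 0.852, adjusted p = 0.00631), on a locus that overlaps Jak3 on its strand. Fdx1, an electron carrier of steroid synthesis, stood at 22.1 and 34.0 CPM at 19 dpp and 53.3 and 64.8 CPM at 25 dpp (log2 difference 1.07, SE 0.223, adjusted p = 0.00501). Of 19 genes tested 2 rose (background 34.9%) and 3 fell (background 25.4%), with a median of 0.03. Without replicate 1 of 19 dpp 2 rose and 4 fell (median −0.54), and without replicate 2 of 19 dpp 8 rose and 1 fell (median 0.87), so the direction of the list turned with the library left out. On total counts 1 rose and 5 fell (median −0.46), and on Sertoli scaling the 2 calls were rises (median 0.87). Leaving out single other libraries gave 1 to 2 falls.

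Other somatic lists were lower or flat. Of 15 interstitial stromal genes 14 fell (background 25.4%), with a median of −1.39, and on Sertoli scaling 4 fell and 1 rose with a median of −0.50. Col1a1, a chain of collagen I, stood at 290.2 and 318 CPM at 19 dpp and 76.0 and 114 CPM at 25 dpp (log2 difference −1.68, SE 0.202, adjusted p = 0.000793). Its partner Col1a2 fell by 1.51 and Pdgfra, a growth factor receptor of these cells, by 1.31. Of 12 peritubular myoid genes 9 fell and 1 rose, with a median of −0.81, and on Sertoli scaling the 1 call was a rise and the median was 0.09. Acta2, their actin, stood at 298 and 235 CPM at 19 dpp and 118 and 145 CPM at 25 dpp (log2 difference −1.02, SE 0.221, adjusted p = 0.00598), while Actg2, another smooth muscle actin, rose by 2.99. Of 14 endothelial genes 7 fell (background 25.4%), and 11 on total counts. The median of −0.78 was −0.58 without replicate 2 of 19 dpp and 0.13 on Sertoli scaling. Cdh5, the cadherin of vessels, stood at 25.4 and 27.7 CPM at 19 dpp and 9.95 and 13.2 CPM at 25 dpp (log2 difference −1.20, SE 0.215, adjusted p = 0.00290).

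Few macrophage genes passed. Of 17 tested 2 rose (background 34.9%), Aif1 and the antibody receptor gene Fcgr3, with a median of −0.39 over the list. The median was −0.87 without replicate 1 and 0.40 without replicate 2 of 19 dpp. It was 0.47 on Sertoli scaling and −0.89 on total counts, where 1 rose and 5 fell. Their summed level was 151 and 320.3 CPM at 19 dpp and 342 and 259.8 CPM at 25 dpp, and replicate 2 of 19 dpp was above replicate 1 in 17 of 17. Csf1r, the receptor that defines them, stood at 18.3 and 38.1 CPM at 19 dpp and 16.1 and 19.9 CPM at 25 dpp (adjusted p = 0.230). Aif1 departed from the rest, at 0.642 and 1.87 CPM at 19 dpp and 149 and 37.3 CPM at 25 dpp (log2 difference 6.20, SE 0.872, adjusted p = 0.00181), with replicate 1 of 25 dpp far above replicate 2. Of 5 red blood cell genes none passed in edgeR and none had an unadjusted p under 0.05, while 1 rose in DESeq2 and in limma-voom. Their summed levels were 56.2 and 128 CPM at 19 dpp and 95.3 and 96.0 CPM at 25 dpp. Of 5 epididymis genes 4 were too low to test, and Rnase10, a ribonuclease-like gene, stood at 0.0642 and 0.144 CPM at 19 dpp and 8.94 and 6.49 CPM at 25 dpp (log2 difference 6.14, SE 0.777, adjusted p = 0.000932).

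The 10 largest falls, taken by the same rule, were smaller than the rises and uneven at 19 dpp. Bcan, a proteoglycan known from brain, stood at 36.4 and 10.7 CPM at 19 dpp and 1.12 and 1.29 CPM at 25 dpp (log2 difference −4.29, SE 0.644, adjusted p = 0.00213). H2-Q10, a secreted class I histocompatibility gene, stood at 68.0 and 19.7 CPM at 19 dpp and 1.61 and 2.92 CPM at 25 dpp (log2 difference −4.27, SE 0.698, adjusted p = 0.00284). Dlk1, an imprinted gene of immature stromal cells, stood at 47.4 and 13.1 CPM at 19 dpp and 2.999 and 4.50 CPM at 25 dpp (log2 difference −3.01, SE 0.605, adjusted p = 0.00581). In these and in Ildr2, Cldn1, Sel1l3 and 2 clone-named loci replicate 1 of 19 dpp was over 3-fold above replicate 2, and both exceeded the libraries of 25 dpp. Zim1, an imprinted zinc finger gene, stood at 18.8 and 10.1 CPM at 19 dpp and 0.981 and 1.99 CPM at 25 dpp (log2 difference −3.29, SE 0.465, adjusted p = 0.00152), and Col9a2, a collagen IX chain, fell by 3.63. Among abundant genes that fell, Psap, which makes lysosomal activator proteins, stood at 1076 and 923 CPM at 19 dpp and 434 and 536 CPM at 25 dpp (log2 difference −1.04, SE 0.186, adjusted p = 0.00285). Sparc, a matrix protein, stood at 1336 and 1431 CPM at 19 dpp and 698 and 881 CPM at 25 dpp (log2 difference −0.81, SE 0.148, adjusted p = 0.00310). Under Sertoli scaling the difference of Sparc was 0.08 and that of Psap −0.14.

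The median difference was lower on the X chromosome than on any autosome. Both sex chromosomes are silenced in pachytene spermatocytes and partly switched on again in spermatids. Of 729 X-linked genes tested 424 fell (58.2% against 29.9% of autosomal genes) and 116 rose (15.9% against 30.4%). The median was −0.91 on X, −0.13 over the 15923 autosomal genes and between −0.22 and 0.03 on single autosomes. The difference of the medians was −0.77, and it lay between −0.67 (without replicate 1 of 25 dpp) and −0.87 (at least 5 CPM in 2 libraries) over the 20 alternatives tried. On Sertoli scaling the medians were −0.01 on X and 0.77 on the autosomes, with 148 X genes higher and 28 lower. These values are a description of the chromosomes, with no test of one against the others.

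**Figure D4:**
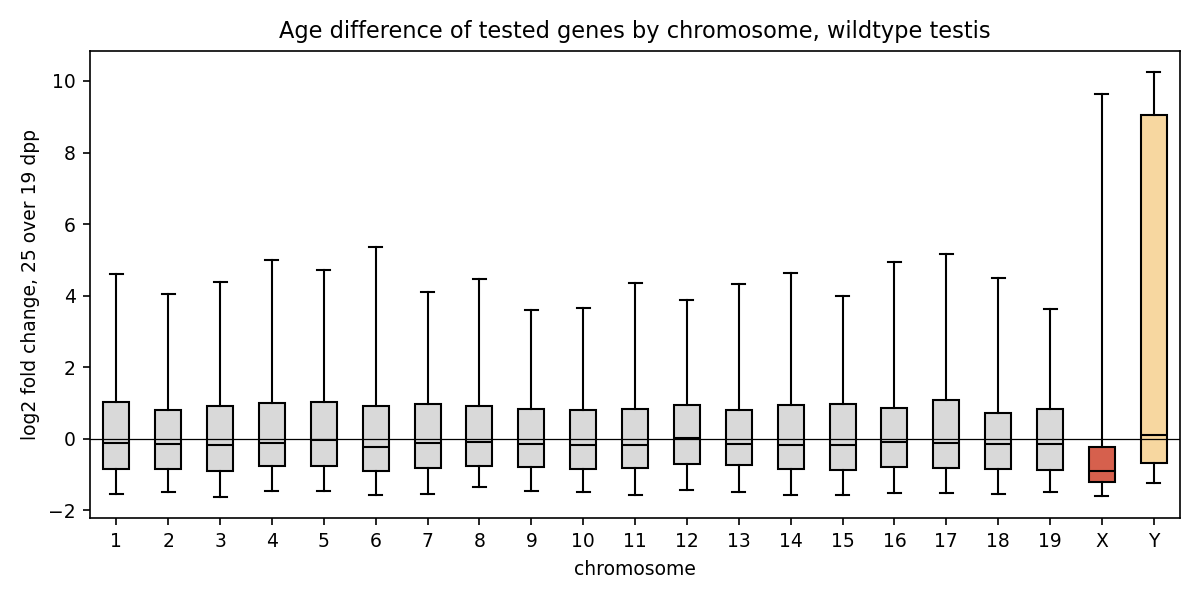
Log2 difference of 25 over 19 dpp of the tested genes of each chromosome, with boxes from the first to the third quartile, a line at the median and whiskers from the 5th to the 95th percentile. The X chromosome (red) has its median at −0.91, below the range of the autosome medians from −0.22 to 0.03, and its upper whisker is above those of the autosomes.

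A minority of X genes went the other way. On X 83 of 729 genes rose at least 16-fold, where 924 of 15923 autosomal genes did. Of 10 genes known as X-linked and active after meiosis that had a row, 8 were tested and all rose. Their median level at 19 dpp was 0.0321 and 0 CPM. Genes near 0 there could pass the filter only by counts in other groups and could not fall, so their direction was not tested. Akap4 lies on X (chrX:7067519-7078609, plus strand), and Cylc1 (chrX:111110418-111125854, plus strand), of the sperm head cytoskeleton, went from no count to 56.9 and 18.6 CPM, at least 845-fold. Tsga8 (chrX:83486678-83487924, minus strand), a spermatid nuclear protein, stood at 1.32 and 1.32 CPM at 19 dpp and 202 and 80.6 CPM at 25 dpp (log2 difference 6.74, SE 0.487, adjusted p = 0.000413). Actrt1, an actin-related protein of the sperm head, went from no count to 13.7 and 4.71 CPM, at least 205-fold. Cypt2 and Slxl1 rose too, and reads of these multicopy families may be split between copies. Of 11 Y genes 4 fell (background 25.4%) and 3 rose, with a median of −0.56, while on total counts 7 fell (median −1.10) and on Sertoli scaling 1 fell (median 0.38). Among those that fell, Kdm5d, a histone demethylase, stood at 34.0 and 27.6 CPM at 19 dpp and 9.95 and 13.1 CPM at 25 dpp (log2 difference −1.42, SE 0.194, adjusted p = 0.00120), and Ddx3y, a helicase, fell by 1.16. The Y genes Ssty1, Ssty2 and Sly, multicopy genes of spermatids, had no count at 19 dpp and stood at 3.24 and 1.37 CPM, 1.20 and 0.790 CPM and 1.83 and 0.965 CPM at 25 dpp, where assignment to single copies is uncertain. With no count at 19 dpp they could not fall. By the DESeq2 test no Y gene rose, and of the 8 Y genes with at least 5 CPM in 2 libraries none rose.

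Germ cells replace several general genes with autosomal or testis-specific copies, and 28 such pairs were followed. Of the germ cell members 24 rose (background 34.9%) and 1 fell (background 25.4%), with a median of 2.34. Of the general members 5 rose and 17 fell, with a median of −0.66. For the 10 pairs whose general member is on X, 9 general members fell (58.2% of X genes tested did) and Cstf2 did not pass, with a median of −0.86. Of their germ cell partners 8 rose while Slc25a31 and Cstf2t did not pass. Pgk1, the general phosphoglycerate kinase (chrX:106187100-106203699, plus strand), stood at 50.1 and 57.6 CPM at 19 dpp and 28.7 and 39.3 CPM at 25 dpp (log2 difference −0.66, SE 0.176, adjusted p = 0.0134). Pgk2 (chr17:40207015-40208640, minus strand) stood at 0.899 and 8.65 CPM at 19 dpp and 615 and 309.7 CPM at 25 dpp (log2 difference 6.59, SE 1.03, adjusted p = 0.00250). Per kilobase of exon the ratio of Pgk2 to Pgk1 went from 0.0248 and 0.207 at 19 dpp to 29.6 and 10.9 at 25 dpp. Rpl10 (chrX:74270812-74273135, plus strand) stood at 205 and 215 CPM at 19 dpp and 94.5 and 114 CPM at 25 dpp (log2 difference −1.01, SE 0.139, adjusted p = 0.00124). Rpl10l (chr12:66283379-66284401, minus strand) stood at 62.4 and 98.1 CPM at 19 dpp and 269 and 241 CPM at 25 dpp (log2 difference 1.67, SE 0.335, adjusted p = 0.00526). On Sertoli scaling the difference was 0.22 for Pgk1 and −0.12 for Rpl10, while both germ cell copies stayed higher. Pdha1 and Pdha2, subunits of pyruvate dehydrogenase, had a ratio of the germ cell to the general gene per kilobase of 2.65 and 5.12 at 19 dpp and 29.7 and 19.7 at 25 dpp.

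**Figure D5:**
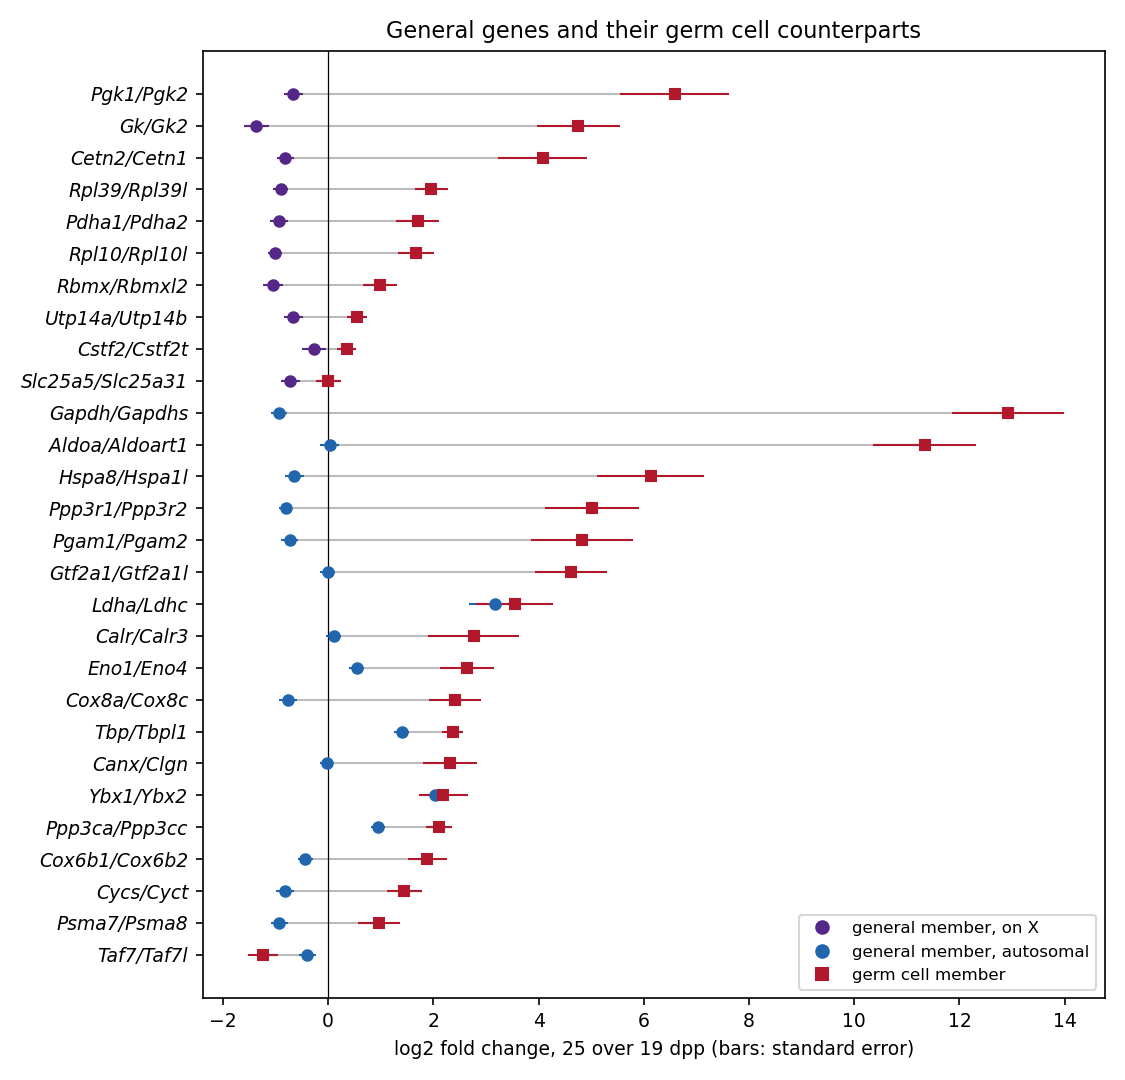
Log2 difference of 25 over 19 dpp with its standard error for the general gene (circles, purple where X-linked, blue where autosomal) and the germ cell gene (red squares) of 28 pairs, sorted by the difference of the germ cell gene within X-linked and autosomal pairs. All 10 purple circles lie left of 0, and Taf7l is the 1 germ cell gene that fell.

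Autosomal pairs gave a wider range. Gapdh, the general glycolytic dehydrogenase, stood at 415 and 359.7 CPM at 19 dpp and 178 and 226 CPM at 25 dpp (log2 difference −0.94, SE 0.148, adjusted p = 0.00186). Gapdhs, the sperm enzyme, had 2 counts over both libraries of 19 dpp and 424 and 105 CPM at 25 dpp, a ratio of 8915 with a 95% counting interval of 2468 to 73613. Ldha rose with Ldhc, from 82.5 and 212 CPM at 19 dpp to 1529 and 1118 CPM at 25 dpp (log2 difference 3.17, SE 0.485, adjusted p = 0.00234). Cycs, somatic cytochrome c, fell by 0.82 while Cyct, of testis, rose by 1.45. Hspa1l, a chaperone of spermatids, stood at 1.35 and 1.75 CPM at 19 dpp and 194 and 24.1 CPM at 25 dpp (log2 difference 6.13, SE 1.02, adjusted p = 0.00297), and Hspa8, the general form, fell by 0.64. Per kilobase the germ cell member gained on the general member in both libraries of 25 dpp in 24 of the 27 pairs with a length, and the pairs Cstf2/Cstf2t, Taf7/Taf7l and Ybx1/Ybx2 did not. In the last of these both members rose, Ybx1 by 2.03 and Ybx2 by 2.19. The carrier gene Slc25a31 stood at 132 and 142 CPM at 19 dpp and 127 and 148 CPM at 25 dpp, with overlapping libraries and no pass (adjusted p = 0.984), beside a fall of 0.72 in X-linked Slc25a5.

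The promoters shown at the start belong to a wider pattern in letters. A single promoter of 300 bases, from 250 before to 50 after the start, was in the RefSeq table for 10059 tested genes. The median number of CG pairs was 19 over these, 4 over the 645 genes that rose at least 16-fold, 15 over the 736 that rose 4-fold to 16-fold, 23 over the 1681 that rose less and 21 over the 3173 that fell, with 10 over the 122 of these that fell at least 4-fold. Over the lists it was 3.5 for round spermatids (22 promoters), 3 for elongating spermatids (18), 22 for pachytene to secondary spermatocytes (15) and 9 for Sertoli cells (17). It was also low for somatic and blood cell lists, at 3 for macrophages (9 promoters), 4 for Leydig cells (12), 4 for red blood cells (5), 5.5 for interstitial stromal cells (8) and 6.5 for endothelial cells (8). The palindrome of the cyclic AMP response element TGACGTCA, the same on both strands, was in 1.40% of promoters of genes that rose at least 16-fold, in 2.92% of all tested genes and in 1.79% of all 32851 promoters in the table. Of the 22 round spermatid promoters 1 held it (Izumo1), and of the 18 elongating spermatid promoters 1 did (Ccin). The half-site TGACG on either strand, which is part of the palindrome, was in 15.4%, 29.3% and 20.8% of the same sets. Both motifs hold a CG pair, so a lower share of them cannot be told apart from a lower number of CG pairs. Variants of the element without a CG pair were not counted. Of 14 gene pairs with a single promoter for both members, the germ cell member had fewer CG pairs in 8, as for Pgk2 with 4 against 24 in Pgk1 and Rpl10l with 13 against 17 in Rpl10, more in 5, as for Rbmxl2 with 29 against 11 in Rbmx and Utp14b with 40 against 21 in Utp14a, and as many in 1, Rpl39l. Where the general member is on X, 4 germ cell members had fewer, 4 more and 1 as many. A match or its absence is a description of these letters and says nothing of a factor's binding.

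Kinds of genes differed too. Of 15654 protein-coding genes 30.2% rose and 32.1% fell, with a median of −0.16. The 6656 rows that could not be placed, mostly clone names, had a median of 1.00, with 47.7% higher and 10.98% lower, and their median level was 0.482 and 0.517 CPM at 19 dpp and 1.96 and 1.40 CPM at 25 dpp. Antisense genes, 164 in number, had a median of 1.15, and without a stated strand setting in the counting their reads cannot be told from those of the genes they face. For 168 small nucleolar RNA genes the median was −1.10, at median levels of 0.546 and 0.503 CPM at 19 dpp and 0.191 and 0.322 CPM at 25 dpp. Of these 1.19% rose and 25.6% fell, the latter near the background of 25.4%. The libraries were made with an mRNA kit, and the source of these reads was not tested.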

How the data were processed

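Libraries of DNase-treated Trizol RNA from whole testes were prepared with a TruSeq Stranded mRNA kit, per the labels' protocols. The deposited values are raw read counts per gene and per repeat family, which the authors made with STAR 2.7.0a and featureCounts 1.5.1 on mm10, per the submitters' processing notes. The gene annotation, the strand setting and the treatment of reads with several matches are not given in the sources used here. The 54087 gene rows were used and the 1205 repeat family rows left out of library sizes and tests. They held 5.51% and 5.43% of counts at 19 dpp and 4.10% and 4.29% at 25 dpp.

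Counts were tested with edgeR 4.0.16 (R 4.3.3): TMM scaling, filterByExpr by group, 1 mean per group over all 8 libraries, robust quasi-likelihood F tests with 4 residual degrees of freedom, and Benjamini-Hochberg adjustment over the 23353 genes tested. All p-values given are from this test unless another is named, and the steps were tested on simulated data. Alternatives used DESeq2 1.42.0, limma 3.58.1 (voom), other scalings and filters, and each library left out in turn. Sertoli scaling set the summed share of 30 Sertoli cell genes equal between libraries, which removes any change in that sum. The 2 libraries of an age differed by more than sampling noise (chi-square per degree of freedom of 38.9 at 19 dpp and 79.8 at 25 dpp). Replicates differed over 2-fold for 12.7% and 11.2% of genes in WT/WT at 19 and 25 dpp. In KO/KO these shares were 6.32% and 9.33%, so the shared spread may be smaller than that of the wildtype libraries. A fold against no count at 19 dpp is a lower bound from a floor of 3 counts over both libraries, and floors and intervals cover counting error only.

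Positions are from GENCODE M21 (GRCm38) for 28418 genes by symbol and 250 by RefSeq synonym. The 25338 rows without a match and 81 with several have none. Of 23353 genes 12484 had a promoter in the RefSeq table. The genes named were the 10 largest and the 10 most abundant changes each way, the 4 members of each of 28 lists with the smallest p and the 4 with the highest level, all members of some lists, the 28 pairs and Dnmt3a. A further 22 list members were named after their values were seen. The lists, the pairs and the comparison were chosen with earlier results of these data known. Of the gene pairs considered, 1 is not reported here.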

Additional observations from a re-analysis of the deposited data

Results flagged for a closer look

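The difference of the age effect between the genotypes was tested in the same fit, as the WT/WT difference less the KO/KO difference. It passed (edgeR, adjusted p under 0.05) for 4464 of 23353 genes, 2671 with a higher and 1793 with a lower effect in WT/WT. Among the 10 largest rises it passed for 7, on the log2 scale by 12.42 for Chl1, 11.14 for RP23-410L16.5, 10.3 for Irgc1, 9.816 for Stat4, 9.315 for Odf1, 9.292 for Spata20 and 8.688 for Oaz3. It did not pass for Kif2b (7.85, SE 2.19, adjusted p = 0.0504), Spz1 (7.38, SE 6.11, adjusted p = 0.441) and Gsg1 (3.55, SE 5.26, adjusted p = 0.696). For Spz1 and Gsg1 the errors were too wide to tell whether the age effect differed. Among the 10 largest falls it passed for Bcan (−3.659) and Ildr2 (−2.955). Both sets were picked by the size of the WT/WT difference, which enters this test, so the choice favoured a pass. For the 7 rises that passed the SE ran from 1.15 (Irgc1) to 2.29 (Oaz3). For Chl1 and Stat4 the size exceeded the WT/WT rise itself, so the fitted KO/KO effect was a fall. No floor was set for KO/KO counts, so these sizes may rest on few counts.

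Repeat family rows, which entered no comparison above, also differed between the ages. With the scaling of the genes 413 of 1054 families tested were higher and 61 lower at 25 dpp (edgeR, adjusted over the families). No other scaling was tried for the families. Their summed share of counts was lower at 25 dpp (4.10% and 4.29%) than at 19 dpp (5.51% and 5.43%). Of 25 LINE-1 families named L1Md 23 were higher and none lower, TE_L1MdTf_III by 1.87, TE_L1MdTf_I by 1.34 and TE_L1MdA_I by 0.82 on the log2 scale. Of 25 families of the IAP endogenous retroviruses 5 were higher, as TE_IAPLTR2a2_Mm by 1.87, and 4 lower, as TE_IAP1-MM_I-int, at −1.09. The SINE families TE_B2_Mm1a (−0.81), TE_B2_Mm1t (−0.55) and TE_B1_Mm (−0.31) were lower. These families were picked after their values were seen. Reads of repeats inside genes may be counted here, which was not tested.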

How the results depend on the processing

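Against 8151 higher, 5928 lower and 14079 genes in all, other settings gave 9718 lower on total counts, 391 lower on Sertoli scaling, 5118 higher among 14434 genes with at least 5 CPM in 2 libraries, and 5194 higher, 531 lower and 5725 in all when a change above 2-fold was tested. The other counts stayed within 1.5 times, apart from those with a library left out and the lower genes with a replicate block over 4 libraries. With each library left out in turn 6488 to 8707 genes were higher, 3777 to 5652 lower and 10282 to 14359 either. The replicate numbers in the labels did not pair the ages (correlation of deviations −0.0877). A replicate block left 8213 higher and 5814 lower over 8 libraries, and 6985 higher and 3798 lower over the 4 wildtype libraries. Without a block the 4 wildtype libraries alone gave 7461 higher, 4573 lower and 12034 in all. The median of all genes moved by 0.14 with DESeq2's size factors and by 0.127 without replicate 2 of 19 dpp. The cause of these shifts was not tested.

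Of 193 named genes followed, the direction turned on Sertoli scaling for Mki67 (0.419), Utp14a (0.250), Hspa8 (0.239), Pgk1 (0.216), Slc25a5 (0.167), Mcm6 (0.0862), Sparc (0.0789) and Cycs (0.0689), and on total counts for Cdk2 (−0.502), which does not pass as reported. Without turning it, Sertoli scaling ended the call of 31, the 2-fold test of 64, a replicate block over the 4 wildtype libraries of 16, total counts of 14 and no filter of 13. Leaving out replicate 1 of 25 dpp ended the call of 24, replicate 1 of 19 dpp of 18, replicate 2 of 25 dpp of 11 and replicate 2 of 19 dpp of 9. With 2 libraries an age, whose spermatid genes differ up to 31.1-fold at 25 dpp, the sizes of the rises have wide errors.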
